A study of Mus musculus with 6 samples.

Results

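The 10 genes described here encode transcription factors of squamous identity and differentiation in the esophagus: Trp63, Sox2, Pax9, Klf4, Klf5, Tfap2a, Tfap2c, Pitx1, Ehf and Elf3. They were chosen by name, and each had a row among the 24016 genes of the expression table. RNA of basal esophageal epithelial cells from Krt15-CrePR1;R26mTomato/mGFP mice was sequenced as 6 libraries, 3 of Krt15-positive cells (CD29 high, GFP-positive) and 3 of Krt15-negative cells (CD29 high, GFP-negative). All mice carried a Cre recombinase that the Krt15 promoter drives and the drug RU486 (mifepristone) activates, together with a reporter that recombination switches from membrane Tomato to membrane GFP. All received 1 mg of RU486, and cells of both groups were sorted 24 h later with CD29 (integrin beta-1) as the basal marker. GFP therefore records Krt15 promoter activity at the time of induction, and a cell that uses the promoter but escaped recombination lies in the Krt15-negative group. The labels give no age, sex or strain and do not say whether each library of a group is a different animal, so p-values rest on library-to-library spread that may be technical. Libraries were made directly from cells with a low-input SMART-Seq kit that does not mark strand, so reads of overlapping antisense genes cannot be told apart.

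In a stratified squamous epithelium, basal cells divide on the basement membrane and their daughters differentiate as they move up. Trp63 (p63) maintains the basal progenitor state, and Sox2 and Pax9 act in the specification of the foregut and the upper digestive tract lining. Klf5 is known for proliferation of basal esophageal cells and Klf4 for differentiation of the layers above. The AP-2 factors Tfap2a and Tfap2c work beside p63 in surface ectoderm, and the ETS factors Ehf and Elf3 are epithelium-specific and are known for differentiation programs. Pitx1 is a paired-type homeodomain factor, best known for hindlimb and pituitary development.

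The promoters of 4 members are shown because these genes stand for the foregut specification factors (Sox2, Pax9) and the differentiation factors (Klf4, Elf3), and because 2 members, Klf4 and Klf5, encode readers of GC-rich boxes. The sequences are from RefSeq on build GRCm38.p6, run 5′ to 3′ on the gene's strand from 250 bases before to 50 bases after the gene's start, and are independent of the expression values. Capitals mark the KLF-type letters CACCC and GGGCGG on either strand.
Sox2, chr3:34649745-34650044, plus strand: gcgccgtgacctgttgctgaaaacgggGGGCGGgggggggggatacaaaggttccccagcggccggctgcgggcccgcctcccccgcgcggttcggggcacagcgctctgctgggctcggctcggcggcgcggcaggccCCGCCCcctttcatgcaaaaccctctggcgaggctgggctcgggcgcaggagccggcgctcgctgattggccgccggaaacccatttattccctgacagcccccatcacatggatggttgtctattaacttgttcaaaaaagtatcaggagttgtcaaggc
Pax9, chr12:56695221-56695520, plus strand: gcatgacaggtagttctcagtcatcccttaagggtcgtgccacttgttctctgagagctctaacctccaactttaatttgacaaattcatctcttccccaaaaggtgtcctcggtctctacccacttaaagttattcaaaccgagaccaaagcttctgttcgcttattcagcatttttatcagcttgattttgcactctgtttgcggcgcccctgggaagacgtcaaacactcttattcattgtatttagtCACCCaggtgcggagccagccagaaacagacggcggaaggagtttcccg
Klf4, chr4:55532426-55532725, minus strand: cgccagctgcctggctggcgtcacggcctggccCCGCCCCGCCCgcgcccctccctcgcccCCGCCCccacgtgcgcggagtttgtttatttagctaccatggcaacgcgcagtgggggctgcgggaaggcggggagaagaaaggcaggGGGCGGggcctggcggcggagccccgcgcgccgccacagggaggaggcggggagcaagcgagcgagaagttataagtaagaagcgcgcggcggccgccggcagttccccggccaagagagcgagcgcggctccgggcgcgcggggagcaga
Elf3, chr1:135258423-135258722, minus strand: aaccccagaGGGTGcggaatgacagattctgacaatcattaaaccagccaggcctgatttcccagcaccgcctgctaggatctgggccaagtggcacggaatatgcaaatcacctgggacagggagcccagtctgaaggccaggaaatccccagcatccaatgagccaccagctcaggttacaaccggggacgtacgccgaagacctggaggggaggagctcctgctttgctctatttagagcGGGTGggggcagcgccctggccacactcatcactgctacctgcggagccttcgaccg

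The Klf4 window held 4 GGGCGG matches, of which the first pair shares bases, and had a GC content of 74.3%, against a median of 52.7% over 32851 promoter windows. The Sox2 window held 2 GGGCGG matches at 66.3% GC, while the Elf3 window held 2 CACCC matches and the Pax9 window 1. A CACCC match was present in 57.5% and a GGGCGG match in 35.7% of all promoter windows, so either is common. The AP-2 letters GCCNNNGGC, found in 16.6% of windows, occurred once in the Klf4 window and in no other of these 4. Promoter sequences were found for 5 of the 10 members, Tfap2a being the other. No binding was measured in these libraries.

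Each value is FPKM, the fragments of a gene divided by transcript length in kilobases and by the library's mapped fragments, as estimated by the authors. Between 7072 and 9194 genes reached 1 FPKM in the Krt15-positive libraries, and between 3247 and 7934 in the Krt15-negative ones. The lowest number belonged to Krt15-negative replicate 1, although the estimated depth of 28.8 M fragments in that library lay within the 27.6 to 42.0 M of the other 5 (M, mega). In that library 66.2% of the 9423 genes tested were below 1 FPKM, against 12.0% to 29.5% in the others, so the difference of each member is also given without it. All 10 basal keratinocyte markers were detected in at least 1 library of each group, and 8 of 10 stood at 1 FPKM or more in all 6. Their summed FPKM was 3863.6 to 14058.5 in Krt15-positive libraries and 3959.9 to 11111 in Krt15-negative ones. Genes of suprabasal differentiation, 25 in number against 10, summed to more in every library. Their sums were 12528.3 to 57105.2 in Krt15-positive libraries and 13651.9 to 40818.3 in Krt15-negative ones. Krtdap alone gave a large part of these sums except in Krt15-negative replicate 3. It stood at 7254, 13640 and 41287 FPKM in Krt15-positive libraries and at 33634, 22532 and 0 FPKM in Krt15-negative ones. The sums therefore do not weigh the suprabasal program as a whole against the basal one. Krt15 itself stood at 3350, 9692 and 2420 FPKM in Krt15-positive libraries and at 2350, 6784 and 3412 FPKM in Krt15-negative ones. Itgb1, which encodes CD29, stood at 23.4, 43.3 and 10.8 FPKM in Krt15-positive libraries and at 1.03, 20.7 and 16.7 FPKM in Krt15-negative ones. Both overlapped between the groups.

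Markers of other cell types were present too, and no gene of these lists passed the adjusted test described below. The summed FPKM of 12 fibroblast markers was 71.3 to 179 in Krt15-positive libraries and 445 to 842 in Krt15-negative ones. The Krt15-positive sums were almost wholly Dcn, which overlapped between the groups. Dcn stood at 167, 176 and 71.1 FPKM in Krt15-positive libraries and at 13.9, 267 and 457 FPKM in Krt15-negative ones. Of the 11 fibroblast markers tested, 8 lay lower in every Krt15-positive library than in any Krt15-negative one, where 2.44% of all genes did. Mgp, Mfap5 and Vim, the most abundant after Dcn, did not exceed 3.51 FPKM in Krt15-positive libraries. They stood at 21.8 FPKM or more in Krt15-negative ones. Col1a2, which is not among the 4 most abundant, was listed at 0 in all Krt15-positive libraries. It stood at 0.581, 7.93 and 15.9 FPKM in Krt15-negative ones. Dcn was the only fibroblast marker at 1 FPKM or more in all 6. The summed FPKM of 12 immune markers was 7316, 162 and 146 in Krt15-positive libraries and 606, 1022 and 988 in Krt15-negative ones, the highest value being mostly Lyz2. Of 8 endothelial markers, 6 were below 1 FPKM in all libraries. In sorted bulk samples, fewer cells of a type cannot be told apart from less RNA per cell. The part of these markers in the results below was not tested.

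All 10 transcription factors were detected, and none differed between Krt15-positive and Krt15-negative cells past the test. Values were compared as log2(FPKM + 1) with limma over the 9423 genes whose mean reached 1 FPKM, and p-values were adjusted over all of these by the Benjamini-Hochberg method. No member passed an adjusted p of 0.05, where 0.0% of all genes did. At an unadjusted p below 0.05, 0 of the 10 members passed, where 3.93% of all genes did (300 higher and 70 lower). The groups overlapped for every member, while 8.85% of all genes were higher and 2.44% lower in every Krt15-positive library than in any Krt15-negative one. The differences, Krt15-positive minus Krt15-negative, were above 0 for 9 members and below 0 for Tfap2c. Their median was 0.67 on the log2(FPKM + 1) scale, beside 0.63 for all genes, and 68.6% of all genes were also above 0. Without Krt15-negative replicate 1 the median of the members was 0.57 and that of all genes 0.02. The median of all genes also moved with the scaling: it was 0.04 after quantile normalization, 0.44 after median-of-ratios scaling and 0.48 after scaling to the upper quartile. The median of the members under the same settings was 0.35, 0.43 and 0.44, so with the last 2 scalings it lay below that of all genes.

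**Figure D1:**
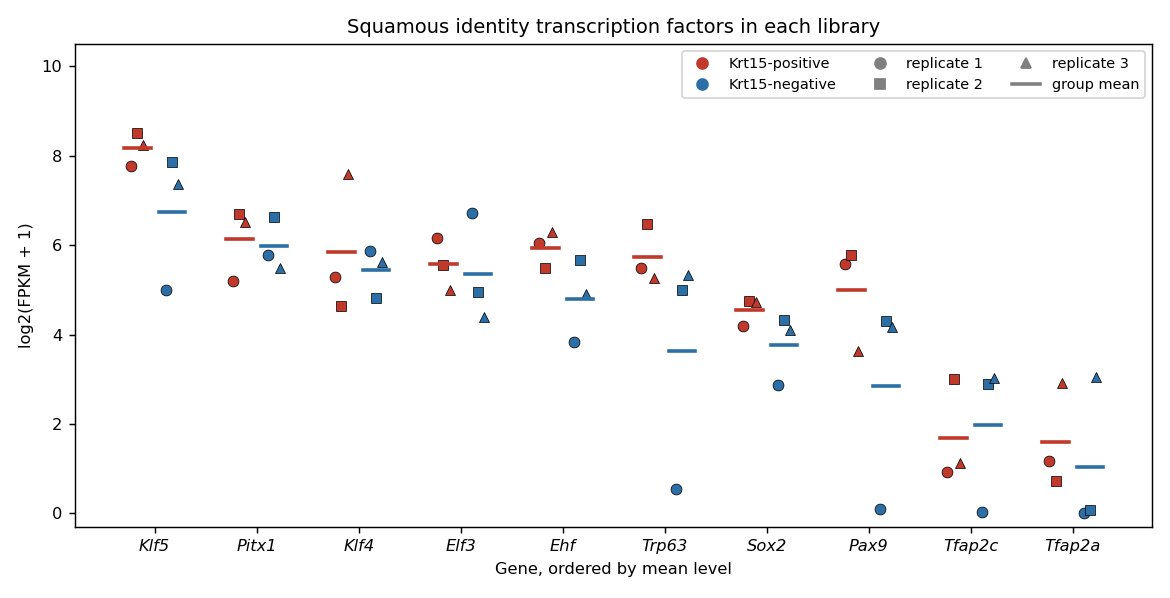
Level of each transcription factor as log2(FPKM + 1) in the 3 Krt15-positive libraries (red) and the 3 Krt15-negative libraries (blue), with symbols for the replicate number and bars for the group mean of the log2 values. Klf5 is the most abundant and the AP-2 genes are the least. Of the 10 genes, 7 have their lowest value in Krt15-negative replicate 1, where 42.3% of all genes tested have their sole lowest.

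The progenitor factor Trp63 was expressed in all libraries except for a trace in Krt15-negative replicate 1. It stood at 44.0, 87.2 and 37.2 FPKM in Krt15-positive libraries and at 0.459, 30.8 and 39.3 FPKM in Krt15-negative ones (56.1 ± 27.1 and 23.5 ± 20.4, SD, n = 3 each). The groups overlapped, since Krt15-positive replicate 3 lay below Krt15-negative replicate 3. The difference of 2.11 had an SE of 1.32 and a 95% interval of -0.77 to 4.995 (limma adjusted p = 0.79). Without Krt15-negative replicate 1 the difference was 0.58 with an SE of 0.60. The trace in that library corresponds to about 22.9 to 71.0 fragments, depending on which of the 8 annotated transcripts, 1729 to 5366 bases long, is assumed. The table gives 1 value per gene, so the TA and deltaN forms of p63 cannot be told apart.

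The genes whose profiles lay nearest to that of Trp63 over the 6 libraries shared its gap in Krt15-negative replicate 1. Likeness was the root mean square difference of the centred log2(FPKM + 1) profiles among 3379 genes of similar mean level. The nearest were Dapk3, a protein kinase (0.22), App, the amyloid precursor protein (0.23), and Lypla1, an acyl-protein thioesterase (0.24), where the median gene lay at 1.27. Dapk3 and Lypla1 were listed at 0 in that library. Among the other members, Pax9 was nearest (0.54, the 135th of these genes) and Elf3 the farthest of those within the level limit (2.47).

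The foregut factors Sox2 and Pax9 differed in how steady they were. Sox2 stood at 17.2, 26.0 and 25.6 FPKM in Krt15-positive libraries and at 6.37, 19.1 and 16.2 FPKM in Krt15-negative ones (23.0 ± 4.96 and 13.9 ± 6.69, SD, n = 3 each). Of the 9 pairings of a Krt15-positive with a Krt15-negative library, 8 had the higher Sox2 value in the Krt15-positive library. The difference was 0.79 with an SE of 1.02 (limma adjusted p = 0.84), and 0.34 without Krt15-negative replicate 1. The SD over the 6 log2 values was 0.69 for Sox2 and 2.06 for Pax9. Pax9 stood at 46.6, 54.0 and 11.4 FPKM in Krt15-positive libraries and at 0.0677, 18.8 and 16.9 FPKM in Krt15-negative ones (37.3 ± 22.8 and 11.9 ± 10.3, SD, n = 3 each). Krt15-positive replicates 1 and 2 were the highest, and replicate 3 lay below 2 of the Krt15-negative libraries. The difference in Pax9, 2.14 with an SE of 1.35, was the highest of the 10 estimates (limma adjusted p = 0.79) and was 0.76 without Krt15-negative replicate 1. About 8.13 to 8.26 fragments stand behind the Pax9 value of that library.

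Klf5, the basal Krüppel-like factor, had the highest mean level of the members, and its paralog Klf4 was lower and more variable in the Krt15-positive group. Klf5 stood at 217, 361 and 303 FPKM in Krt15-positive libraries and at 30.8, 232 and 164 FPKM in Krt15-negative ones (294 ± 72.4 and 142 ± 102, SD, n = 3 each). Krt15-positive replicate 1 lay just below Krt15-negative replicate 2, which was the single pairing out of 9 in that order. The difference was 1.43 with an SE of 0.79 and a 95% interval of -0.30 to 3.16, and it had the smallest p of the members (unadjusted p = 0.096, limma adjusted p = 0.79). It was 0.56 with an SE of 0.39 without Krt15-negative replicate 1. Klf4 stood at 38.1, 24.04 and 193 FPKM in Krt15-positive libraries and at 57.8, 27.1 and 48.0 FPKM in Krt15-negative ones (85.1 ± 93.8 and 44.3 ± 15.7, SD, n = 3 each). Krt15-positive replicate 3 alone made the mean of its group the higher: the difference of 0.41 with an SE of 0.99 turned to -0.47 without it. Without Krt15-negative replicate 1 it was 0.63. The Klf4 difference also turned to -0.05 with upper-quartile scaling and to -0.06 with median-of-ratios scaling.

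The ratio of Klf5 to Klf4 within a library does not depend on scaling between libraries. It was 5.70, 15.0 and 1.57 in Krt15-positive libraries and 0.533, 8.56 and 3.43 in Krt15-negative ones. Klf5 thus exceeded Klf4 in 5 of 6 libraries, and Krt15-negative replicate 1 was the exception. The groups overlapped in this ratio, which was picked after the values were seen and was not tested.

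**Figure D2:**
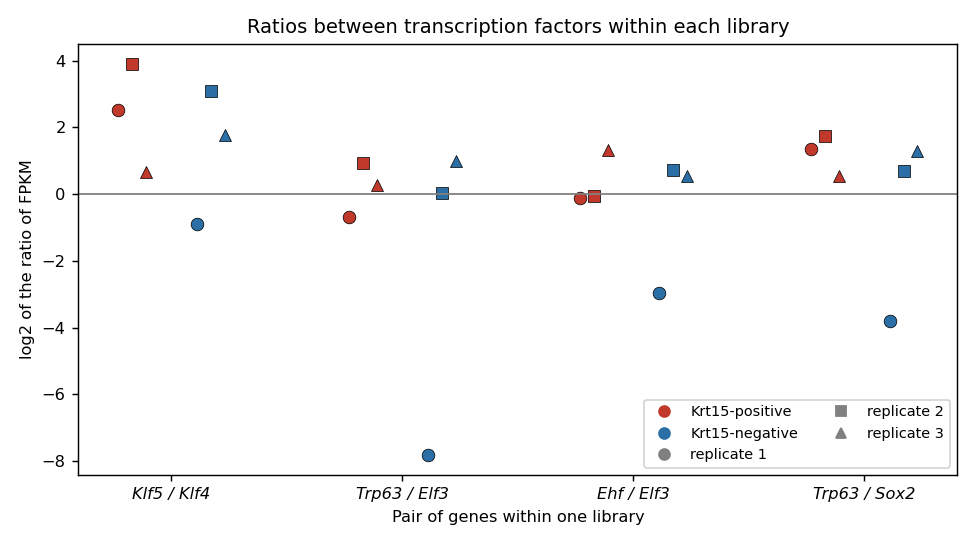
Ratio of the FPKM of 2 transcription factors within each library, on a log2 axis, in Krt15-positive (red) and Krt15-negative (blue) libraries, with symbols for the replicate number. The groups overlap in each of the 4 ratios, and Krt15-negative replicate 1 has the lowest value in each, down to 0.00443 for Trp63 over Elf3. That place depends on which gene is the numerator: Klf5 over Trp63, not shown, is highest in that library (67.2). No ratio was tested.

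The AP-2 genes were the least abundant members, and each ranged from a trace or 0 to more than 6 FPKM. Tfap2a stood at 1.25, 0.640 and 6.59 FPKM in Krt15-positive libraries and at 0, 0.0499 and 7.32 FPKM in Krt15-negative ones. It was thus highest in the replicate 3 library of both groups, and the value listed at 0 can also be a failed estimate. The Tfap2a difference was 0.56 with an SE of 1.15 (limma adjusted p = 0.90) and was 0.04 without Krt15-negative replicate 1. It turned to -0.34 with quantile normalization, to -0.95 with library weights and to -0.10 without Krt15-positive replicate 3. Tfap2c stood at 0.906, 7.06 and 1.19 FPKM in Krt15-positive libraries and at 0.0250, 6.44 and 7.15 FPKM in Krt15-negative ones (3.05 ± 3.48 and 4.54 ± 3.93, SD, n = 3 each). Its lowest value rests on about 2.00 to 2.15 fragments, and libraries of both groups reached 6 FPKM or more. The Tfap2c difference was -0.29 with an SE of 1.21 (limma adjusted p = 0.96) and was -1.27 without Krt15-negative replicate 1. It turned above 0 with a pseudocount of 0.1 (0.22) and without Krt15-positive replicate 1 (0.09), Krt15-negative replicate 2 (0.16) or Krt15-negative replicate 3 (0.23).

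Pitx1 was abundant in all libraries and close between the groups. It stood at 35.5, 102 and 91.2 FPKM in Krt15-positive libraries and at 53.8, 98.4 and 44.2 FPKM in Krt15-negative ones (76.4 ± 35.8 and 65.5 ± 28.9, SD, n = 3 each). The lowest and the highest value both belonged to Krt15-positive cells. The difference of 0.17 had an SE of 0.84 and a 95% interval of -1.66 to 1.99 (limma adjusted p = 0.96), which still spans changes of more than 1 log2 unit either way. It was 0.07 without Krt15-negative replicate 1. It turned to -0.29 with upper-quartile scaling, to -0.31 with median-of-ratios scaling, to -0.11 without Krt15-positive replicate 2, to -0.03 without Krt15-positive replicate 3 and to -0.07 without Krt15-negative replicate 3.

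The ETS factors Ehf and Elf3 were both present at 13 FPKM or more in all libraries, and they ranked the libraries differently. Ehf stood at 64.9, 44.0 and 77.3 FPKM in Krt15-positive libraries and at 13.3, 49.6 and 28.9 FPKM in Krt15-negative ones (62.1 ± 16.8 and 30.6 ± 18.2, SD, n = 3 each). Only Krt15-positive replicate 2 and Krt15-negative replicate 2 were in the other order among the 9 pairings. The Ehf difference was 1.14 with an SE of 0.91 (limma adjusted p = 0.79), and 0.66 with an SE of 0.56 without Krt15-negative replicate 1. Elf3 stood at 70.7, 46.0 and 30.8 FPKM in Krt15-positive libraries and at 104, 30.2 and 19.9 FPKM in Krt15-negative ones (49.1 ± 20.2 and 51.3 ± 45.7, SD, n = 3 each). It was the only member with its highest value in Krt15-negative replicate 1, the library in which 7 of the 10 members had their lowest. Of all genes tested, 42.3% had their sole lowest value there too. In both groups Elf3 was highest in replicate 1 and lowest in replicate 3. Krt15-negative replicate 1 lay above every Krt15-positive library, and Krt15-negative replicates 2 and 3 lay below every one. The Elf3 difference was 0.21 with an SE of 0.95 (limma adjusted p = 0.96). It was 0.89 with an SE of 0.62 without Krt15-negative replicate 1, a setting in which 10.8% of all genes were higher in every Krt15-positive library, as Elf3 was. It turned to -0.25 with upper-quartile scaling, to -0.26 with median-of-ratios scaling, to -0.08 without Krt15-positive replicate 1 and to -0.27 without Krt15-negative replicate 3.

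By the same measure of likeness, the genes nearest to Elf3 among 2555 of similar level were Prdx3, a mitochondrial peroxiredoxin (0.23), Mrpl16, a mitochondrial ribosomal protein gene (0.25), and Cish, an inhibitor of cytokine signalling (0.26). All 3 had their highest value in Krt15-negative replicate 1 too, as Prdx3 shows with 36.6, 33.3 and 25.2 FPKM in Krt15-positive libraries and 58.2, 18.3 and 11.2 FPKM in Krt15-negative ones. Nearest to Klf5 among 1227 genes were Zfand2b, a zinc finger protein gene of the ubiquitin system (0.21), Laptm4a, a lysosomal membrane protein gene (0.26), and Bcl7c, a chromatin remodelling subunit gene (0.26). Each of these had its lowest value in Krt15-negative replicate 1.

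**Figure D3:**
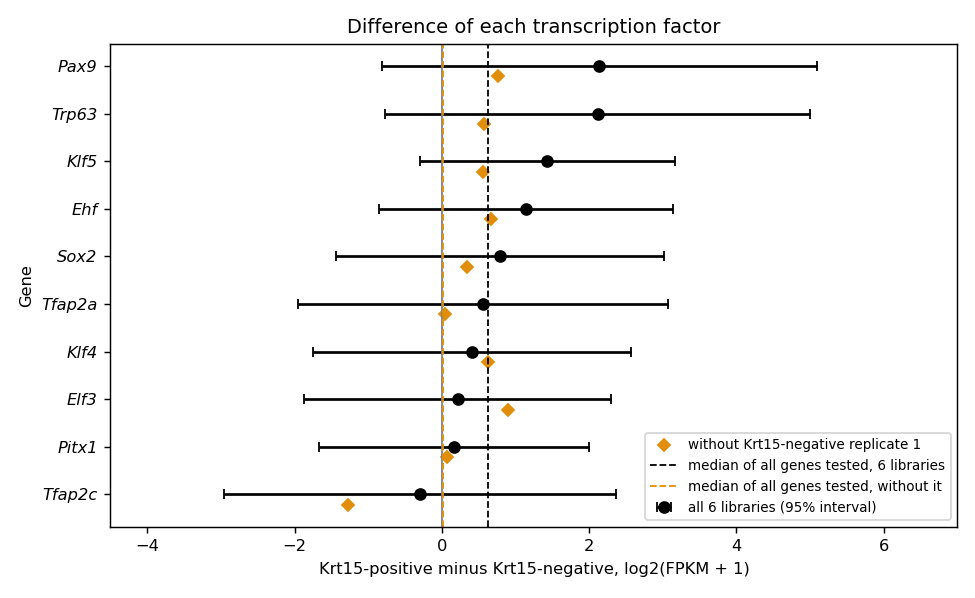
Difference of each transcription factor, Krt15-positive minus Krt15-negative, on the log2(FPKM + 1) scale, with 95% intervals from limma (black) and the estimate without Krt15-negative replicate 1 (orange). All 10 intervals span 0, and leaving out that library brings Pax9 to 0.76 and Trp63 to 0.58, while Elf3 moves up to 0.89; dashed lines mark the median over all genes tested, 0.63 with all libraries and 0.02 without that one.

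Because FPKM is per transcript length, levels can also be ordered between genes. By mean log2(FPKM + 1) over the 6 libraries the order was Klf5 (7.46), Pitx1 (6.05), Klf4 (5.64), Elf3 (5.46), Ehf (5.37), Trp63 (4.68), Sox2 (4.17), Pax9 (3.93), Tfap2c (1.84) and Tfap2a (1.32). Of the 9 steps in that order, 2 were larger than the SD of the difference over libraries. Klf5 exceeded Pitx1 in 5 of 6 libraries, by 1.40 ± 1.16 (SD over libraries), and Pax9 exceeded Tfap2c in 6 of 6, by 2.09 ± 1.59. From Pitx1 down to Pax9 each neighbour differed from the next by less than the SD of that difference, and Tfap2c and Tfap2a each were the higher in 3 libraries. Klf5 ranked first in all Krt15-positive libraries and in Krt15-negative replicates 2 and 3, and at rank 4 in Krt15-negative replicate 1, where Elf3 ranked first. Sox2 stayed between ranks 6 and 8 in all libraries, while Klf4 moved between ranks 2 and 8. Medians by length were taken over genes with a single annotated transcript that stood at 1 FPKM or more in the library. The median FPKM was 39.0 to 185 below 1000 bases and 3.07 to 8.77 above 4000 bases. The order between genes of unequal length is thus less certain than that between libraries for 1 gene.

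**Figure D4:**
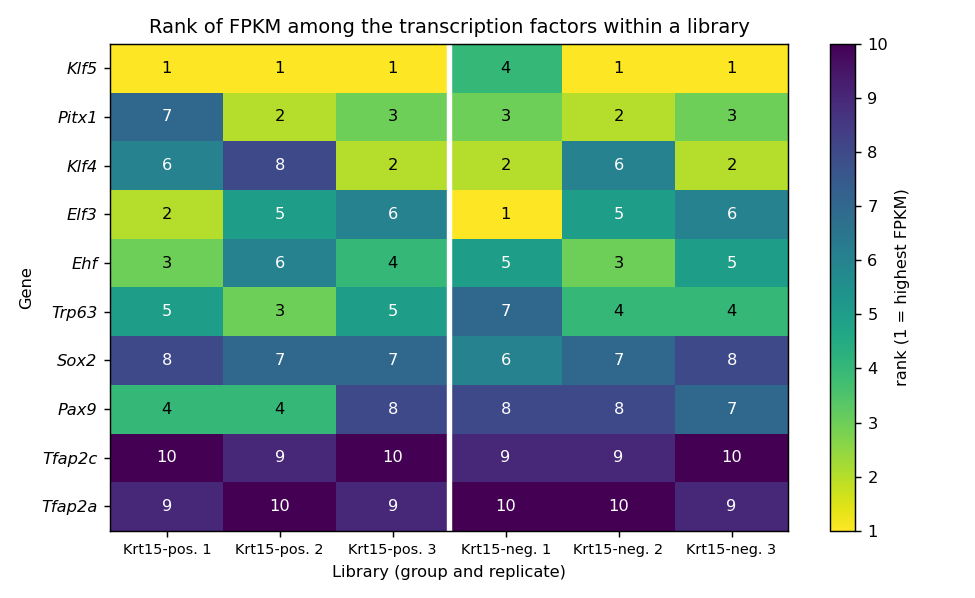
Rank of the FPKM of each transcription factor among the 10 within each library, from 1 (highest, yellow) to 10 (lowest, dark), with Krt15-positive libraries left of the white line and Krt15-negative libraries right of it. Klf5 ranks first in 5 of 6 libraries and the AP-2 genes take ranks 9 and 10 in all 6.

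Other transcription factors of stratified epithelium were listed for comparison, 25 in all, of which 20 were tested. None passed the adjusted test, and 18 of the 20 differences were above 0, where 68.6% of all genes were. Their median was 1.03, or 1.02 without Krt15-negative replicate 1, beside 0.63 and 0.02 for all genes. The most abundant were Cebpb, a leucine zipper factor, Sox15, a Sox family member, Hes1, a Notch target, and Hopx, an atypical homeodomain protein. Hopx stood at 117, 54.7 and 104 FPKM in Krt15-positive libraries and at 0, 16.0 and 63.6 FPKM in Krt15-negative ones. Sox15 stood at 147, 242 and 242 FPKM in Krt15-positive libraries and at 80.5, 290 and 303 FPKM in Krt15-negative ones, above Sox2 in every library. Ovol2 and Sox21, named after their values were seen, were higher in every Krt15-positive library than in any Krt15-negative one.

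Many close relatives of the members were listed at 0 or at low values. Of 25 listed relatives, 11 were below 1 FPKM in all libraries, and Pax1, Pax6, Pax8, Sox17 and Sox18 were listed at 0 throughout. Tfap2b and Tfap2d did not exceed 0.0205 FPKM, while Tfap2e, also an AP-2 gene, stood at 0.0174, 4.90 and 0 FPKM in Krt15-positive libraries and at 0, 0.0115 and 7.07 FPKM in Krt15-negative ones. Pitx3 did not exceed 0.0278 FPKM. Klf6, a ubiquitous Krüppel-like factor, was the most abundant relative, at 230, 219 and 115 FPKM in Krt15-positive libraries and 81.4, 153 and 51.4 FPKM in Krt15-negative ones. Trp53, which encodes p53, stood at 42.0, 67.9 and 25.9 FPKM in Krt15-positive libraries and at 58.7, 79.2 and 49.1 FPKM in Krt15-negative ones. Trp73, the third family member, did not exceed 2.80 FPKM. Of the 13 relatives tested none passed, 6 differences were above 0 and 7 below, and their median was -0.11. That median had no steady sign: it was 0.0014 without Krt15-negative replicate 1, -0.58 after quantile normalization and 0.85 when Krt15-negative replicate 2 was left out. Of the 13, 2 (Klf10 and Elf2) were higher in every Krt15-positive library than in any Krt15-negative one, where 8.85% of all genes were. These relatives other than Klf6, Trp53 and Klf10 were named after their values were seen.

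Factors of other foregut and gut lineages were mostly listed at 0, which in a table without counts can also be a failed estimate. Of 20 housekeeping genes, 2 also stood at 0 in Krt15-negative replicate 1 and 1 in Krt15-negative replicate 2. Of 16 such genes, 10 were listed at 0 in all libraries, among them Foxa2, Cdx2, Gata4 and Pdx1. Foxa1, a pioneer factor of endoderm, stood at 27.0, 20.3 and 0.310 FPKM in Krt15-positive libraries and at 85.2, 0.364 and 10.2 FPKM in Krt15-negative ones, so that both groups held a library below 1 FPKM.

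Genes known as targets of p63 mostly had differences above 0, and none passed the test. Of 25 listed, 23 were tested, 0 passed and 22 differences were above 0, where 68.6% of all genes were. Their median was 0.95, or 0.58 without Krt15-negative replicate 1, beside 0.63 and 0.02 for all genes. The most abundant were Krt14 and Krt5, basal keratins, with Sfn (14-3-3 sigma) and Perp, a desmosomal protein gene. Perp stood at 455, 1151 and 1657 FPKM in Krt15-positive libraries and at 191, 1452 and 859 FPKM in Krt15-negative ones. Of the 23, 6 were higher in every Krt15-positive library than in any Krt15-negative one, where 8.85% of all genes were. These were Itga3, Col17a1, Fgfr2, Fgfr3, Dsc3 and Pkp1, named after their values were seen. Fgfr2, a fibroblast growth factor receptor gene, stood at 17.8, 31.8 and 24.8 FPKM in Krt15-positive libraries and at 0, 15.4 and 4.85 FPKM in Krt15-negative ones. Relative to Krt5 in the same library, Trp63 stood at 0.106, 0.0675 and 0.0991 in Krt15-positive libraries and at 0.000959, 0.0299 and 0.107 in Krt15-negative ones.

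Genes of suprabasal differentiation, the program with which Klf4, Ehf and Elf3 are associated, did not pass either. Of 25 listed, 21 were tested, with 16 differences above 0 and 5 below, where 68.6% of all genes were above 0. The median was 0.94, or 0.44 without Krt15-negative replicate 1, beside 0.63 and 0.02 for all genes. With library weights it was 0.17, and that of all genes was 0.17 too. Krt13, a keratin of the layers above the basal one, stood at 847, 3212 and 3771 FPKM in Krt15-positive libraries and at 1066, 3452 and 3278 FPKM in Krt15-negative ones, and Krt4, its partner keratin, overlapped likewise. Genes that every cell uses, 20 in number, had a median difference of 0.06, or -0.12 without Krt15-negative replicate 1.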

How the data were processed

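The deposited table holds 24043 rows of FPKM values in 6 library columns, as estimated by the authors; its title calls them counts, but the values are not whole and fall with transcript length. STAR 2.5, Cufflinks 2.2.1, DESeq2 and build mm9 are named, without roles, per the submitters' processing notes; the sources used here give neither the annotation nor the strand setting. After 27 date-altered symbols were dropped, 24016 genes remained. Depth was estimated from the single-fragment step of FPKM times length in 6640 genes with 1 transcript of at least 1500 bp (GENCODE M21 lengths), and is approximate.

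The 9423 genes whose mean reached 1 FPKM were analysed as log2(FPKM + 1). The model was limma 3.58.1 (R 4.3.3; Python 3.11.15 and pandas 2.3.3 for tables), used with its trend option and group as the only term, and was tested on simulated data. Other pseudocounts, filters and scalings, library weights, a replicate block and left-out libraries were tried as alternatives. A fold on this scale understates changes of low genes. Zeros can be failed estimates, so a mean ± SD is not given for genes listed at 0. The members and lists were chosen with earlier results of these data known. The text names all members, Krt15, Itgb1, the 4 most abundant genes of a list where they bear on it, and the 3 nearest profiles to Trp63, Klf5 and Elf3. A few genes of the comparison lists are not reported here by name.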

Additional observations from a re-analysis of the deposited data

How the results depend on the processing

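Each result was recomputed under 16 alternatives. No gene was called by limma in any of them except with library weights, where 0 were higher and 8 lower in Krt15-positive cells; at an unadjusted p below 0.05 the numbers higher and lower were 300 and 70 in the reported fit, 495 and 348 with library weights, 168 and 149 without Krt15-negative replicate 1, and 121 and 178 with quantile normalization. The differences of Trp63, Sox2, Pax9, Klf5 and Ehf stayed above 0 in all 16 alternatives, and those of Trp63, Pax9 and Klf5 also stayed above the median of all genes. That median was itself above 0 in each alternative, from 0.02 to 1.20. The share of all genes that stayed above 0, or above that median, throughout was not counted. All alternatives reuse the same libraries, so they are not independent of each other. Trp63 ranged from 0.58 to 2.97, Pax9 from 0.47 (without replicate 1 in both groups) to 3.02, and Klf5 from 0.56 to 1.99. The other 5 members changed sign. Upper-quartile and median-of-ratios scaling gave -0.048 and -0.063 for Klf4, -0.29 and -0.31 for Pitx1 and -0.25 and -0.26 for Elf3. Tfap2a was -0.95 with library weights and -0.34 after quantile normalization, and Tfap2c 0.22 with a pseudocount of 0.1. Leaving out single libraries gave -0.27 to 0.89 for Elf3, -0.47 to 1.01 for Klf4, -0.11 to 0.64 for Pitx1, -0.10 to 1.57 for Tfap2a and -1.27 to 0.23 for Tfap2c. The number of members higher in every Krt15-positive library, 0 as reported, was 1 with upper-quartile scaling (9.08% of all genes), 2 with median-of-ratios scaling (8.1%), 2 with quantile normalization (4.3%; 1 was lower, beside 4.91%), 3 without replicate 1 in both groups (18.9%), and 1 to 3 when a single library was left out, where smaller groups separate more often (10.8% to 19% of all genes). The cause of the other changes was not tested. With a mean of at least 5 FPKM, Tfap2a and Tfap2c were not tested.

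With the replicate number as a block, 0 genes were called, and the Klf5 unadjusted p was 0.054 and its adjusted p 0.74 by limma. Same-numbered libraries deviated together with correlations of 0.13, 0.17 and 0.0089 over genes, and differently numbered ones with -0.164 to 0.029. With 3 libraries a group, these values cannot settle whether the number marks a pairing. The reported fit does not use the number. The labels also give same-numbered libraries of the 2 groups a common sample identifier without saying what it marks, so a shared animal or sort was not settled. Klf5 and Sox2, and no other member, were higher in the Krt15-positive library in 3 of 3 same-numbered comparisons. The share of all genes in that order was not counted, so this order does not set the 2 members apart from other genes. By the different measure of the group difference, 68.6% of all genes were above 0 in the reported fit. In Krt15-negative replicate 1, 42.3% of all genes tested had their sole lowest value. Replicates 1 and 2 correlated best with their own number and replicate 3 did not.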
